A study of Rattus norvegicus with 12 samples.

Results

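Satellite cell and myogenic regulators were examined in the pubocaudalis, a muscle of the rat pelvic floor, after simulated birth injury (SBI). The 9 genes, Pax7, Myf5, Megf10, Cdh15, Myod1, Myog, Myf6, Mef2c and Des, were found by gene symbol among the 30206 genes of the deposited count table, and all 9 passed the low-count filter that 14599 genes passed. All animals were female Sprague-Dawley rats, 3 months old and pregnant, whose vagina was distended with a balloon shortly before delivery, so every group was injured and there was no uninjured group in these libraries. Pups were removed after birth in 1wk SBI and 3wk SBI (non-lactating) and were left with the dam in 1wk SBI + Lac and 3wk SBI + Lac (lactating), and muscle was taken 1 or 3 weeks after injury. Each group had 3 libraries, in each of which the RNA of 2 rats was combined, and n = 3 is therefore a number of pools. The question was whether lactation was accompanied by a different level of each regulator at each time.

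Satellite cells are the stem cells of skeletal muscle and lie under the sheath of the muscle fiber. After injury they become active, divide as myoblasts, and then fuse into new fibers or return to rest. Pax7 marks the resting and dividing cells, Myf5 and Myod1 are the transcription factors of commitment, and Myog and Myf6 are those of later differentiation and of the fiber itself. Megf10 is a receptor on the satellite cell surface, Cdh15 (M-cadherin) joins satellite cells to fibers, Mef2c is a transcription factor that works with the Myod1 family, and Des (desmin) is the intermediate filament of muscle cells.

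Promoter sequences are shown for 2 early regulators, Pax7 and Myf5, and 2 later ones, Myog and Myf6, because the early and later genes are set against each other below. Each window runs from 250 bases before to 50 bases after the annotated gene start and is written 5′ to 3′ on the strand of the gene, from RefSeq annotation of GRCr8, which is not stated to be the build of the counts. Pax7 lies at chr5:157381072-157381371 (minus strand), Myf5 at chr7:44692589-44692888 (minus strand), Myog at chr13:48297226-48297525 (plus strand) and Myf6 at chr7:44701264-44701563 (minus strand). Capitals mark E-boxes, CANNTG, the same on both strands, which is the site that factors of the Myod1 family bind.
Pax7: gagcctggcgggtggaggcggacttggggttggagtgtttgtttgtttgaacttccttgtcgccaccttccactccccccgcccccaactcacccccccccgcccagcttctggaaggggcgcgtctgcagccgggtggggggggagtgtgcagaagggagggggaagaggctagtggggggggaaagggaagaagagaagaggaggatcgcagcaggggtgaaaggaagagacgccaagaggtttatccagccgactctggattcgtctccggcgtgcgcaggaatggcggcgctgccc
Myf5: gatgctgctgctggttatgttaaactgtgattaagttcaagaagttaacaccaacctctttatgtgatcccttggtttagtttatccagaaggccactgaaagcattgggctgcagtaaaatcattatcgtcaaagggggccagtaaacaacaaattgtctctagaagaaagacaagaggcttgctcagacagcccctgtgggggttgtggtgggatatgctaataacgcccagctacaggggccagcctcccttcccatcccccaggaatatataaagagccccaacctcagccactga
Myog: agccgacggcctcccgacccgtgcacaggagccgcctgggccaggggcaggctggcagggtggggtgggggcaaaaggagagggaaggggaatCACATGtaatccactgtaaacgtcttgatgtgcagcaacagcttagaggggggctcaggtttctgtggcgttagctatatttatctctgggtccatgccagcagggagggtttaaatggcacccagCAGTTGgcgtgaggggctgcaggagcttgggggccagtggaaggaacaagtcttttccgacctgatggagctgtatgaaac
Myf6: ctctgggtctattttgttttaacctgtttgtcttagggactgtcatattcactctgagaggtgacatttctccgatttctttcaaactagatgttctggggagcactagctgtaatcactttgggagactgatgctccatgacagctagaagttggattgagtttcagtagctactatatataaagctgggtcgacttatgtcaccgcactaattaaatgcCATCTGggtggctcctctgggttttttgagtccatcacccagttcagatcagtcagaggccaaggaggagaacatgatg
Of the 9 genes, 6 had a window, and those of Myod1, Megf10 and Mef2c were unmatched. The windows of Pax7 and Myf5 held 0 E-boxes, that of Myog 2 (CACATG and CAGTTG) and that of Myf6 1 (CATCTG), and Cdh15 and Des had 3 and 1. At least 1 E-box was present in 72.1% of 33469 promoter windows of this length and at least 2 in 38.64%. The MEF2 consensus site was searched on both strands as YTAWWWWTAR, where Y is C or T, W is A or T and R is A or G. A full match was found in the Myf6 window alone among these 6 and in 3.287% of all windows. Near matches were not counted, such as ctatatttat in the Myog window, which differs in the last base.

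Total counts ran from 10082734 to 75634391 per library, and at 1 week every non-lactating library was deeper than every lactating one. The 3wk SBI + Lac replicate 3 library, one of the shallowest, stood farthest from the others on the first principal component of all genes (82.6, the others from -58.7 to 36.0). On that component 3wk SBI replicate 3, the deepest library, was at -27.4, among the 1-week libraries (-58.7 to 2.57). Replicates 1 and 2 of its group were at 25.5 and 17.6. On the second component 3wk SBI replicate 1 stood farthest out (-66.7). Of 9 mature fiber genes listed to check the tissue, 8 were in the table, and their summed level was 76518 to 202598 normalized CPM in every library, where normalized CPM are counts scaled to the TMM-adjusted library size. Levels are not scaled to transcript length and are not compared between genes. Myog, Myf6, Mef2c and Des had at least 297 counts in every library, whereas Pax7 had 9 to 441, Myf5 19 to 510 and Megf10 20 to 893.

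At 1 week after SBI, the markers of satellite cells Pax7, Myf5 and Megf10 had means about 2-fold lower in the lactating group, whereas Myod1, Myf6, Mef2c and Des had log2 fold changes from -0.17 to 0.21. None of the 9 genes was called at an adjusted p under 0.05 with an absolute log2 fold change over 1 by the quasi-likelihood test of edgeR, against 0.253% of all genes tested. In DESeq2 on all 12 libraries 2 of the 9 were called, against 1.31% of all genes with an adjusted p there. At an unadjusted p under 0.05, 5 of the 9 genes passed, namely Pax7, Myf5, Megf10, Cdh15 and Myog, all lower in lactating rats, beside 18.9% of all genes in either direction and 9.16% lower. Among 19 other satellite cell genes, given below, 2 were lower and 3 higher at this unadjusted cutoff. Their median log2 fold change was -0.047, so the lower level of Pax7, Myf5 and Megf10 was not shared by the list. In muscle RNA from whole tissue, fewer satellite cells and less of these transcripts per cell cannot be told apart.

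Pax7 (ENSRNOG00000018739) was at 7.07, 4.27 and 5.08 normalized CPM in the 1wk SBI libraries and at 1.71, 3.39 and 2.94 in 1wk SBI + Lac. Every lactating pool was below every non-lactating pool, and the lowest was replicate 1. The means were 5.47 ± 1.44 and 2.68 ± 0.872 (SD, n = 3 each), which is -1.03 ± 0.29 (SE) as log2 fold change, with an adjusted p of 0.0905 in edgeR. Megf10 (ENSRNOG00000013674) was at 13.4, 9.58 and 11.1 in non-lactating and at 4.10, 6.20 and 5.14 normalized CPM in lactating pools, again with no overlap. Its log2 fold change was -1.14 ± 0.27 (SE, adjusted p = 0.0632, edgeR), the smallest p of the 9 genes at this time. Myf5 (ENSRNOG00000004768) was at 8.17, 5.25 and 4.85 in non-lactating and at 3.34, 2.88 and 3.15 normalized CPM in lactating pools. The groups did not overlap, and the lactating pools lay close together (3.13 ± 0.232 against 6.09 ± 1.81, SD, n = 3 each). The log2 fold change of Myf5 was -0.96 ± 0.27 (SE, adjusted p = 0.0925, edgeR). DESeq2, which the study used, called Pax7 and Megf10 on all 12 libraries (adjusted p = 0.0217 and 0.00565), and also on the 6 libraries of 1 week, where 2.23% of all genes were called. In edgeR, leaving out one library at a time moved the log2 fold change of Pax7 between -1.22 and -0.80, of Megf10 between -1.29 and -1.01 and of Myf5 between -1.10 and -0.69, and the count of called genes between 0 and 2. At equal depth Megf10 had a log2 fold change of -1.31 (adjusted p = 0.0322, edgeR) and with only the 6 libraries of 1 week one of -1.15 (adjusted p = 0.033, edgeR), past both cutoffs. Without 1wk SBI replicate 3, edgeR called both Megf10 (adjusted p = 0.0437) and Myf5 (adjusted p = 0.0416), and it called Megf10 without replicate 2 (0.0341) or 3 (0.0217) of 3wk SBI.

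Cdh15 (ENSRNOG00000027954), which is also on the satellite cell surface, had a smaller log2 fold change than Pax7. It was at 23.1, 18.2 and 16.7 normalized CPM in 1wk SBI and at 13.3, 15.9 and 16.0 in 1wk SBI + Lac. The pools did not overlap, but the nearest were 16.7 and 16.0, and the log2 fold change was -0.36 ± 0.15 (SE, adjusted p = 0.202, edgeR). In all, 4 of the 9 genes were lower in every lactating pool at 1 week and 1 was higher, beside 14.1% and 14.3% of all genes tested.

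Among the later factors, Myog (ENSRNOG00000030743), which drives myoblasts into differentiation, was at 86.4, 104.6 and 52.9 normalized CPM in 1wk SBI and at 54.8, 49.0 and 57.4 in 1wk SBI + Lac. Replicate 3 of the non-lactating group fell within the lactating range, so that the groups overlapped, and the log2 fold change was -0.60 ± 0.19 (SE, adjusted p = 0.115, edgeR). Without that library it was -0.83 (adjusted p = 0.00357, edgeR), and without 1wk SBI replicate 2 it was -0.38 (adjusted p = 0.365, edgeR). Myf6 (ENSRNOG00000004878), the factor of mature fibers, had 101.2 ± 19.7 in non-lactating and 107.6 ± 18.0 normalized CPM in lactating pools (SD, n = 3 each). Its log2 fold change was 0.088, with a 95% interval from -0.23 to 0.40, so that a difference of the size seen for Pax7 lay outside the interval. Myod1 (ENSRNOG00000011306) was at 31.9, 40.4 and 27.6 in non-lactating and at 38.9, 35.8 and 28.3 normalized CPM in lactating pools, which overlapped. Its log2 fold change was 0.042, with an interval from -0.29 to 0.37. Mef2c (ENSRNOG00000033134) was at 477, 321 and 395 in non-lactating and at 379, 330 and 349 normalized CPM in lactating pools, so that the lactating range lay inside the other, and its log2 fold change was -0.17, from -0.51 to 0.17. Des (ENSRNOG00000019810) was at 3586, 3893 and 4484 in non-lactating and at 4615, 4668 and 4584 normalized CPM in lactating pools. All lactating pools were above all non-lactating ones, by little, and the log2 fold change was 0.21 ± 0.17 (SE, adjusted p = 0.519, edgeR).

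**Figure D1:**
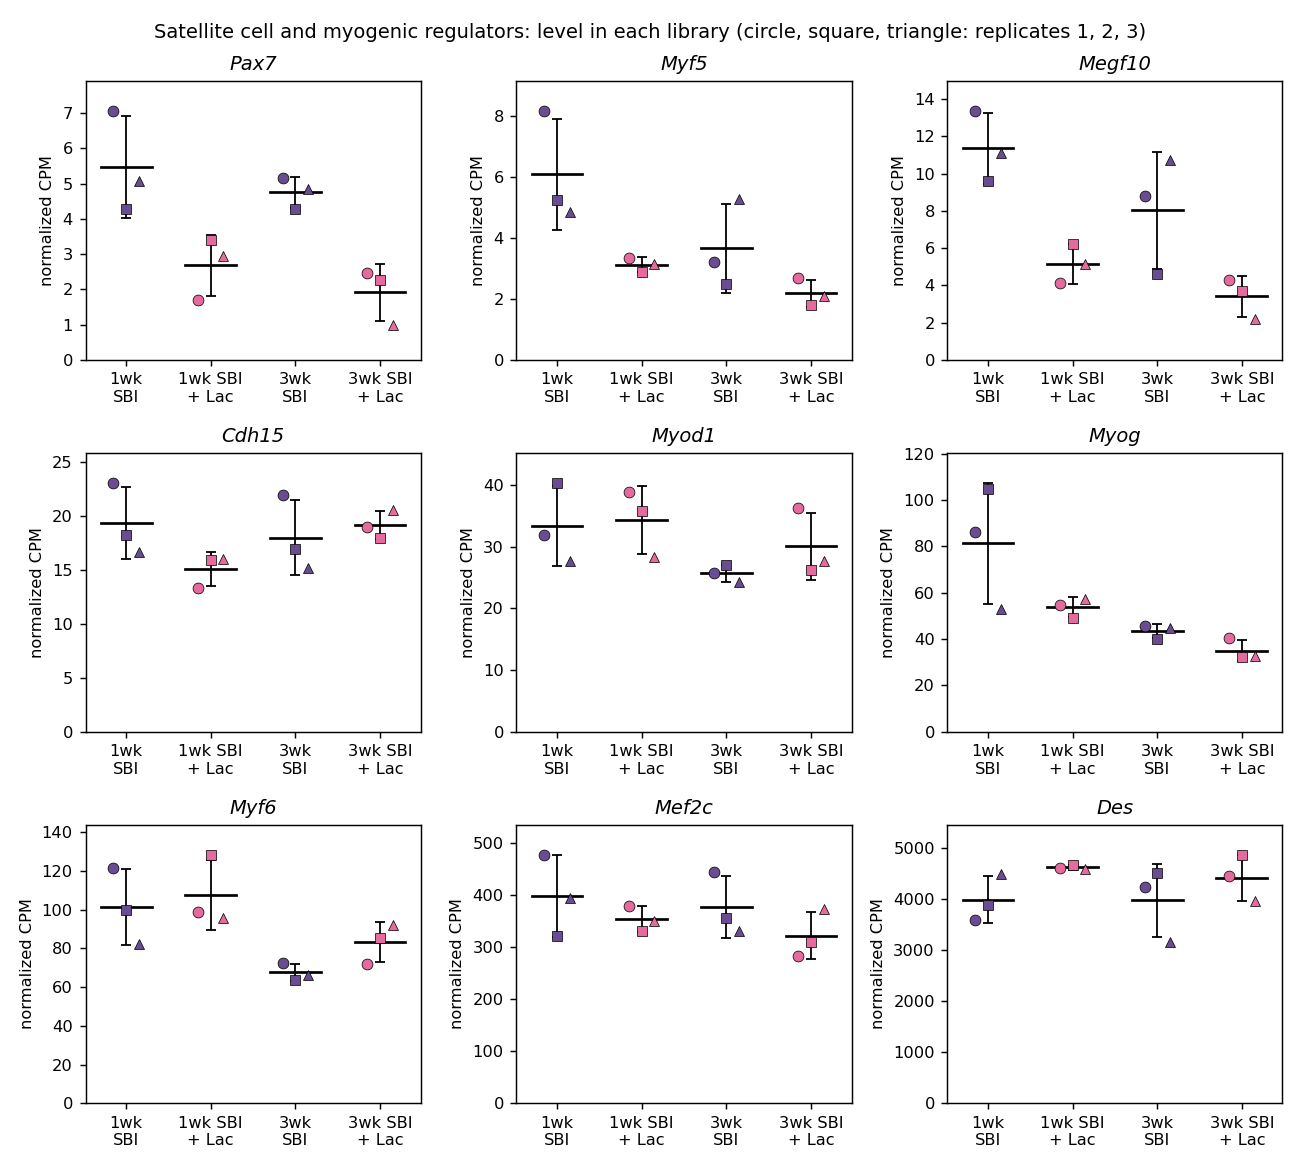
Normalized CPM (y axis, from 0) of each of the 9 genes in the 12 libraries by group (x axis), with purple for non-lactating and pink for lactating pools, a bar for the mean and whiskers for the SD (n = 3). Pax7 was lower in all 6 lactating than in all 6 non-lactating pools, and Myf6 had means of 101.2 and 107.6 at 1 week.

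At 3 weeks after SBI, Pax7, Myf5 and Megf10 again had lower means in lactating rats, and Megf10 fell past both cutoffs. It was the 1 gene of 9 that was called, where 0.74% of all genes tested were. At an unadjusted p under 0.05, 3 of the 9 genes passed, Pax7, Myf5 and Megf10, all lower, beside 21.1% of all genes in either direction and 11.2% lower. In DESeq2 on all 12 libraries, 2 of the 9, Pax7 (adjusted p = 0.00707) and Megf10 (adjusted p = 0.00349), were called, where 1.76% of all genes were.

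Megf10 was at 8.80, 4.58 and 10.7 normalized CPM in the 3wk SBI libraries and at 4.30, 3.71 and 2.20 in 3wk SBI + Lac. The groups did not overlap, although replicate 2 of the non-lactating group was close to the highest lactating pool. The log2 fold change was -1.19 ± 0.29 (SE, adjusted p = 0.0458, edgeR), and the call was lost in 9 of 12 fits made without a library each. It held without 1wk SBI replicate 1, 1wk SBI replicate 3 or 3wk SBI replicate 2, and the adjusted p otherwise ran from 0.056, without 1wk SBI + Lac replicate 1, to 0.214, without 3wk SBI replicate 3, where the log2 fold change was -0.86 (edgeR). With only the 6 libraries of 3 weeks in the edgeR fit, the adjusted p was 0.0883.

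Pax7 was at 5.15, 4.27 and 4.85 normalized CPM in 3wk SBI and at 2.47, 2.28 and 0.99 in 3wk SBI + Lac. All 3 lactating pools were below all non-lactating pools, as was the case for 2 of the 9 genes, with 10.4% of all genes tested lower in this way. The lowest value, in replicate 3, rested on 9 counts, which gives an exact 95% binomial interval from 0.452 to 1.88 normalized CPM for counting error only. The log2 fold change was -1.20 ± 0.31 (SE, adjusted p = 0.0543, edgeR), and without that library it was -0.99 (adjusted p = 0.127, edgeR). At equal depth, with each library thinned to the smallest total, the log2 fold change of Pax7 was -1.40 (adjusted p = 0.0396, edgeR) and that of Megf10 -1.51 (adjusted p = 0.0112, edgeR).

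Myf5 was at 3.22, 2.48 and 5.29 normalized CPM in 3wk SBI and at 2.67, 1.81 and 2.09 in 3wk SBI + Lac. The groups overlapped, and the high value was that of non-lactating replicate 3. The log2 fold change was -0.81 ± 0.30 (SE, adjusted p = 0.14, edgeR). Leaving out 3wk SBI replicate 3 brought it to -0.36, with an adjusted p of 0.626, and equal depth to -0.39, with an adjusted p of 0.562 (edgeR).

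The later regulators overlapped between the groups at 3 weeks. Myog was at 45.7, 39.9 and 44.7 normalized CPM in 3wk SBI and at 40.2, 32.1 and 32.6 in 3wk SBI + Lac, which is -0.31 ± 0.19 (SE) as log2 fold change, with an adjusted p of 0.381 in edgeR. Myf6 was at 72.6, 63.9 and 66.2 in non-lactating and at 71.8, 85.5 and 92.0 normalized CPM in lactating pools. Its log2 fold change was 0.30 (95% interval from -0.024 to 0.62, adjusted p = 0.274, edgeR). Myod1 was at 25.7, 26.9 and 24.3 in non-lactating and at 36.3, 26.2 and 27.7 normalized CPM in lactating pools, of which replicate 1 was the highest. Cdh15 was at 21.9, 16.9 and 15.1 in non-lactating and at 18.9, 18.0 and 20.6 in lactating pools, without the 1-week separation. Des was between 3161 and 4516 in non-lactating and between 3955 and 4859 normalized CPM in lactating pools, and Mef2c between 331 and 445 and between 283 and 372. Myod1 had a log2 fold change of 0.24 (-0.11 to 0.58), Cdh15 of 0.11 (-0.22 to 0.43), Des of 0.15 (-0.21 to 0.52) and Mef2c of -0.23 (-0.57 to 0.11), with 95% intervals in parentheses.

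**Figure D2:**
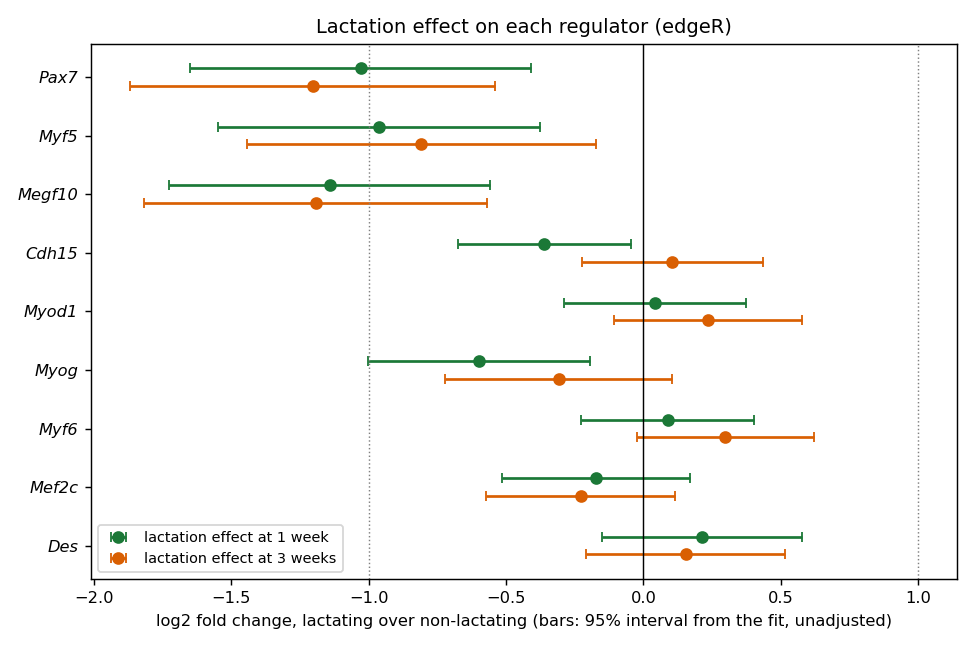
Log2 fold change of each gene, lactating over non-lactating (x axis), at 1 week (green) and 3 weeks (orange), with 95% intervals from the edgeR fit without adjustment and dotted lines at -1 and 1. Pax7 (-1.03 and -1.20) and Megf10 (-1.14 and -1.19) lay below -1 at both times, whereas the intervals of Myod1, Mef2c and Des included 0.

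Whether the effect of lactation differed between the time points was tested as an interaction. None of the 9 genes was called, nor were they in DESeq2, where 0.0634% of all genes were, and 1 of them, Cdh15, had an unadjusted p under 0.05, where 0.00685% and 4.42% of all genes tested did so in edgeR. The effect of lactation on Cdh15 was 0.47 higher at 3 weeks than at 1 week on the log2 scale (standard error 0.21, unadjusted p = 0.0452, adjusted p = 0.999, edgeR). For Pax7 the effects differed by -0.18 (95% interval from -1.08 to 0.73), for Megf10 by -0.051 (-0.90 to 0.80) and for Myf5 by 0.15 (-0.71 to 1.02), and these intervals are wide enough to hold a 1.5-fold difference in either direction. The difference was 0.19 for Myod1 (-0.28 to 0.67), 0.29 for Myog (-0.29 to 0.87) and 0.21 for Myf6 (-0.24 to 0.66). It was -0.059 for Des (-0.57 to 0.45) and -0.057 for Mef2c (-0.54 to 0.43).

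Averaging the effects of both times in the same fit, a contrast added after the data were seen, used all 6 lactating and 6 non-lactating pools. Pax7 and Megf10 were called, 2 of 9 genes, where 2.28% of all genes tested were called and 1.98% were lower. Pax7 was lower in each of the 6 lactating pools than in each of the 6 non-lactating ones, which 0.897% of all genes were. Its averaged log2 fold change was -1.12 ± 0.21 (SE, adjusted p = 0.00561, edgeR), and that of Megf10 was -1.17 ± 0.20 (SE, adjusted p = 0.00422, edgeR). Leaving out one library at a time kept the adjusted p of both under 0.05, at most 0.0182 for Pax7 and 0.0142 for Megf10. The log2 fold change came just under the cutoff without 1wk SBI + Lac replicate 1 for Pax7 (-0.997) and without 3wk SBI replicate 3 for Megf10 (-0.999). With Myf5 (-0.89, adjusted p = 0.012, edgeR) and Myog (-0.45, adjusted p = 0.0377, edgeR), 4 of the 9 genes had an adjusted p under 0.05, beside 15.3% of all genes. At equal depth Myf5 missed it (-0.69, adjusted p = 0.0619, edgeR). Myog missed 0.05 in 8 of the 12 fits without a library, with adjusted p-values up to 0.101, those without 1wk SBI replicate 1 or 2, 1wk SBI + Lac replicate 1 or 2, 3wk SBI replicate 1 or 3, or 3wk SBI + Lac replicate 2 or 3. The averaged effect was 0.14 for Myod1 (95% interval from -0.099 to 0.38), 0.19 for Myf6 (-0.033 to 0.42), -0.13 for Cdh15 (-0.35 to 0.10), 0.18 for Des (-0.073 to 0.44) and -0.20 for Mef2c (-0.44 to 0.043).

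Early regulators were then set against later ones within each library, as the log2 ratio of normalized CPM, which does not depend on library size. These ratios are given as a description, with no test, and their zero has no meaning because transcript lengths differ. They reuse the levels given above, and how often other gene pairs separate between the groups was not computed. The log2 ratio of Myf5 to Myf6 was -3.89, -4.25 and -4.08 in 1wk SBI and -4.88, -5.48 and -4.92 in 1wk SBI + Lac. It was -4.50, -4.69 and -3.64 in 3wk SBI and -4.75, -5.57 and -5.46 in 3wk SBI + Lac, so that lactating pools were lower than non-lactating pools at both times. At 3 weeks the nearest, non-lactating replicate 2 (-4.69) and lactating replicate 1 (-4.75), almost met, and Myf5 by itself overlapped. The ratio of Pax7 to Myog overlapped at 1 week, from -4.62 to -3.38 in non-lactating and from -5.01 to -3.85 in lactating pools. At 3 weeks it was -3.15, -3.22 and -3.20 in non-lactating and -4.02, -3.82 and -5.04 in lactating pools, without overlap. The ratio of Pax7 to Myod1 was lower in all lactating pools at both times, with means of -2.62 and -3.73 at 1 week and of -2.43 and -4.07 at 3 weeks. At 1 week the nearest pools, non-lactating replicate 2 (-3.24) and lactating replicate 3 (-3.27), almost met. Within the later pair, the log2 ratio of Myog to Myf6 ran from -0.64 to 0.067 in non-lactating and from -1.39 to -0.74 in lactating pools at 1 week, and from -0.68 to -0.57 and from -1.49 to -0.84 at 3 weeks, with no overlap at either time. The summed level of Pax7 and Myf5 was 11.6 ± 3.19 in non-lactating and 5.80 ± 0.660 normalized CPM in lactating pools at 1 week, and 8.42 ± 1.70 and 4.10 ± 1.03 at 3 weeks (SD, n = 3 each). The sum of Myog and Myf6 was 182.5 ± 41.1 and 161.3 ± 13.9 at 1 week and 111.0 ± 7.24 and 118.1 ± 6.32 at 3 weeks, in the same order.

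**Figure D3:**
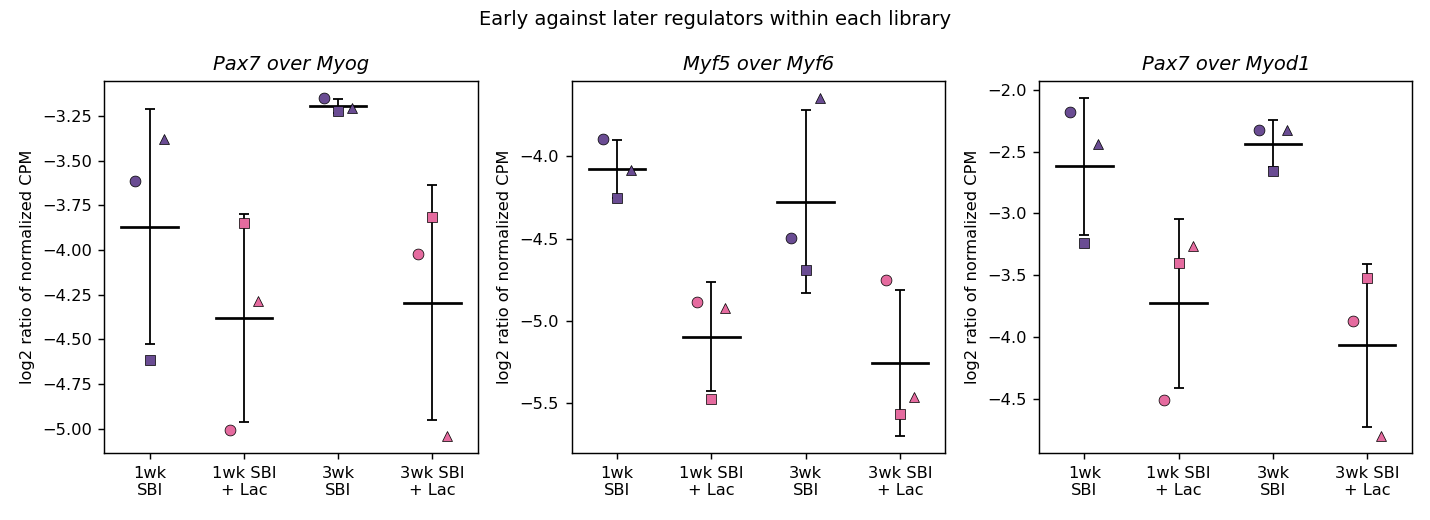
Log2 ratio of the normalized CPM of an early to a later regulator within each library (y axis, not from 0) by group, with bars for the mean and whiskers for the SD (n = 3). Myf5 over Myf6 and Pax7 over Myod1 were lower in every lactating pool at both times. The nearest pools almost met for Myf5 over Myf6 at 3 weeks (-4.69 and -4.75) and for Pax7 over Myod1 at 1 week. Pax7 over Myog overlapped at 1 week, from -4.62 to -3.38 and from -5.01 to -3.85.

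Between 1 and 3 weeks, Myog and Myf6 had lower levels at the later time. Without lactation, Myf5 and Myod1 were also lower at an unadjusted p under 0.05 (edgeR). Log2 fold changes were below 0 for all 9 genes without lactation and for 8 with it, where the medians of all genes tested were -0.0086 and -0.016. Those of Des (-0.0049) and Mef2c (-0.077) without lactation were close to 0, so the signs do not show a fall shared by all 9 genes. The deposited values carry decimals at 3 weeks and none at 1 week, so time and the way of counting cannot be told apart in these comparisons. Without lactation, Myog went from 81.3 ± 26.2 to 43.4 ± 3.07 and Myf6 from 101.2 ± 19.7 to 67.6 ± 4.52 normalized CPM (SD, n = 3 each), with no overlap between the times for either. The log2 fold changes were -0.91 ± 0.19 (SE, adjusted p = 0.0176, edgeR) and -0.58 ± 0.15 (SE, adjusted p = 0.0366, edgeR). These 2 of the 9 genes had an adjusted p under 0.05, beside 5.05% of all genes. None was called with both cutoffs in edgeR or DESeq2, where 1.46% and 2.27% of all genes were, and 4 of the 9 had an unadjusted p under 0.05, where 21.2% of all genes did. Myog, Myf6 and Myod1, 3 of the 9, were lower in every pool at 3 weeks, as 11.4% of all genes were. Both Myog and Myf6 lost the adjusted cutoff in fits without 1wk SBI replicate 1, 1wk SBI replicate 2, 3wk SBI replicate 1 or 3wk SBI replicate 2, with adjusted p-values of 0.0539 to 0.0941 for Myog and 0.071 to 0.207 for Myf6 (edgeR), and Myf6 also lost it without 3wk SBI + Lac replicate 2 (0.0519). With only the 6 non-lactating libraries in the fit, the adjusted p was 0.0839 for Myog and 0.0957 for Myf6 (edgeR). These were the highest over the alternatives other than leaving out 1 library, where the lowest were 0.000349 and 0.00725 (edgeR or DESeq2). Beside Myog and Myf6, the genes with an unadjusted p under 0.05 in edgeR were Myf5 and Myod1. The log2 fold change was -0.67 for Myf5 (95% interval from -1.26 to -0.082) and -0.38 for Myod1 (-0.72 to -0.042). It was -0.48 for Megf10 (-1.06 to 0.11), -0.21 for Pax7 (-0.83 to 0.41) and -0.13 for Cdh15 (-0.45 to 0.19). Mef2c had -0.077 (-0.42 to 0.27) and Des -0.0049 (-0.37 to 0.36).

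With lactation, Myog was between 49.0 and 57.4 normalized CPM at 1 week and between 32.1 and 40.2 at 3 weeks. Myf6 went from 107.6 ± 18.0 to 83.1 ± 10.3 (SD, n = 3 each). The log2 fold changes were -0.62 (adjusted p = 0.111, edgeR) and -0.38 (adjusted p = 0.199, edgeR). Over the alternatives other than leaving out 1 library, the adjusted p ran from 9.14e-05 to 0.164 for Myog and from 0.0622 to 0.272 for Myf6 (edgeR or DESeq2). Both genes were lower in every pool at 3 weeks. With Myf5, 3 of the 9 did so and 1, Cdh15, was higher in every pool, beside 14.7% and 13.4% of all genes. None of the 9 was called in edgeR or DESeq2, beside 0.774% and 1.73% of all genes, and 3 had an unadjusted p under 0.05, beside 18.1%, Myog and Myf6 lower and Cdh15 higher (0.34, unadjusted p = 0.0413, adjusted p = 0.25, edgeR). The 2 comparisons over time share no library.

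The genes whose pattern over the 12 libraries was most like that of a regulator were found by the root mean square difference of log2 normalized CPM, with each time point centred on its mean, among 12019 genes. For Pax7 they were Megf10 (0.27), Adamts14 (0.27) and Dact3 (0.29), where Pax7 itself varied by 0.73 on that scale. For Myog they were Litaf (0.094), Btg1 (0.095) and Cables2 (0.13), and for Myod1, Crebrf (0.095), Brms1 (0.11) and C2cd3 (0.11). A gene that varies little, as Myod1 did (0.20), has a small difference from many others.

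Lists of genes that act around the 9 regulators were counted in the same fits. The lists hold other satellite cell genes, the Notch pathway that keeps satellite cells at rest, and partners and coactivators of the Myod1 family. They also hold inhibitors of that family and genes of myoblast differentiation. The differentiation list includes Ccnd1 (cyclin D1), which is a gene of cell division. At an unadjusted p under 0.05, 9.16% of all genes were lower at 1 week and 11.2% at 3 weeks, and 18.9% and 21.1% passed in either direction. None of the genes on these lists was called at 1 week or at 3 weeks in edgeR, whereas DESeq2 on all 12 libraries called 2 of the satellite cell list (Vcam1 and Ncam1) and 3 of the differentiation list (Actc1, Myh8 and Mymk) at 1 week, and 1 (Calcr) and 2 (Cdkn1c and Myh3) at 3 weeks, all lower, beside 1.31% and 1.76% of all genes. DESeq2 on only the libraries compared called 1 satellite cell gene (Vcam1) and 4 differentiation genes (Actc1, Myh8, Myl4 and Mymk) at 1 week and 0 and 2 (Cdkn1a and Cdkn1c) at 3 weeks, again lower, beside 2.23% and 1.37% of all genes. Of 19 other satellite cell genes, 2 were lower and 3 higher at an unadjusted p under 0.05 at 1 week, and the median over the list was -0.047 beside -0.0038 for all genes tested. At 3 weeks 3 were lower and 1 higher, with a median of 0.031 beside -0.019 for all genes. At 1 week Vcam1, an adhesion molecule also made by endothelial cells, had a log2 fold change of -1.11 (adjusted p = 0.0679, edgeR), with 18.0 ± 3.49 and 8.35 ± 0.987 normalized CPM. Ncam1, which denervated and regenerating fibers also make, had -1.07 (adjusted p = 0.127) and Spry1, an inhibitor of growth factor signalling, 0.37 (adjusted p = 0.195, edgeR). At 3 weeks Calcr, the calcitonin receptor of resting satellite cells, was at 1.57 ± 0.331 in non-lactating and 0.495 ± 0.249 normalized CPM in lactating pools (SD, n = 3 each). Its log2 fold change was -1.57 (adjusted p = 0.0693, edgeR), beside 0.52 for the syndecan gene Sdc4 (adjusted p = 0.0791) and -0.43 for Cd34 (adjusted p = 0.0967), which endothelial cells also make.

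Of 12 genes of the Notch pathway, 1 was lower at an unadjusted p under 0.05 at 1 week and 2 were lower at 3 weeks, with medians of -0.024 and -0.21. The ligand Dll1 had log2 fold changes of -0.89 at 1 week and -0.63 at 3 weeks (adjusted p = 0.0835 and 0.195, edgeR). The receptor Notch3 had -0.27 and -0.51 (adjusted p = 0.327 and 0.0783) and the receptor Notch2 -0.34 and -0.36 (adjusted p = 0.286 and 0.241, edgeR). Of 10 partners and coactivators 9 were tested, and 1 was higher at an unadjusted p under 0.05 at 1 week, and 1 higher and 1 lower at 3 weeks. The one that was higher each time was Smarcd3, a chromatin remodelling subunit that works with Myod1, at 126.5 ± 15.6 and 163.4 ± 8.06 normalized CPM at 1 week and 117.9 ± 21.5 and 159.2 ± 7.95 at 3 weeks (SD, n = 3 each). Its log2 fold changes were 0.37 and 0.44 (adjusted p = 0.152 and 0.0896, edgeR), with no overlap between pools at either time, and that of Tcf12, an E protein that pairs with Myod1, was -0.23 at 1 week and -0.29 at 3 weeks (adjusted p = 0.308 and 0.191, edgeR). Next came Srf, the serum response factor, with 0.20 at 1 week, and the E protein Tcf4, with -0.24 at 3 weeks (adjusted p = 0.378 and 0.369, edgeR).

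Of 14 inhibitors, 2 were lower and 1 higher at an unadjusted p under 0.05 at 1 week, and 5 were lower and 2 higher at 3 weeks, with medians of -0.25 and -0.33. At 1 week these were Mdfi, which binds factors of the Myod1 family (-1.18, adjusted p = 0.2), Id2, which binds their partners (-0.47, adjusted p = 0.231), and Hdac5, which represses Mef2 proteins (0.38, adjusted p = 0.0986, edgeR). Those with the smallest p at 3 weeks were Mstn (myostatin), which restrains muscle growth (0.93, adjusted p = 0.0783), Id2 (-0.67, adjusted p = 0.104) and Twist1 (-1.01, adjusted p = 0.121, edgeR).

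Of these lists, the differentiation genes had the medians farthest from 0. Of 16, Ccnd1 included, 10 were lower and 2 higher at an unadjusted p under 0.05 at 1 week (median -0.86). At 3 weeks 5 were lower and 2 higher (median -0.58). Of all genes, 9.16% and 11.2% were lower in this way. Mymk (myomaker), needed for fusion, had a log2 fold change of -1.75 at 1 week (adjusted p = 0.092), Actc1, an actin of developing fibers, -1.41 (adjusted p = 0.0679) and Lrp4, a receptor of the nerve-muscle synapse, -0.68 (adjusted p = 0.0715, edgeR). At 3 weeks Ccnd1, the gene of cell division on this list, which dividing cells of other types also make, had -0.77 (adjusted p = 0.0608, edgeR). Jsrp1 and Dok7, genes of the mature fiber and its synapse, had 0.43 (adjusted p = 0.0891) and 0.45 (adjusted p = 0.0936, edgeR). In the averaged contrast 5 of the 16 were called, Cdkn1c, Myh8, Mymk, Myl4 and Myh3, with log2 fold changes from -1.78 to -1.04. Of all genes tested, 1.98% were called lower there. Among these, the embryonic and neonatal myosin genes Myh3 and Myh8 kept the call in 2 and 6 of the 12 fits without a library, Myl4 in 3, Mymk in 4 and Cdkn1c in 8. The highest adjusted p over these fits was 0.122 for Myh3, 0.0672 for Myh8, 0.15 for Myl4, 0.268 for Mymk and 0.0504 for Cdkn1c (edgeR). Calcr (-1.11) and Mdfi (-1.30) were also called in the averaged contrast, and kept the call in 8 and 6 of these fits, with adjusted p-values up to 0.0681 and 0.0803 (edgeR). Both rest on few counts. Their means in 3wk SBI + Lac were 0.495 and 0.308 normalized CPM, with lowest values of 0.330 and 0.110. In replicate 3 of that group, 3 counts make 0.330. Over time, 8 differentiation genes were called lower at 3 than at 1 week without lactation (Mymk, Mymx, Myh8, Myl4, Tnnt2, Actc1, Chrna1 and Musk) and 5 with lactation (Mymk, Mymx, Myl4, Actc1 and Musk), beside 1.46% and 0.774% of all genes in either direction, as was Ncam1 in both, with the limit on counting given above.

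**Figure D4:**
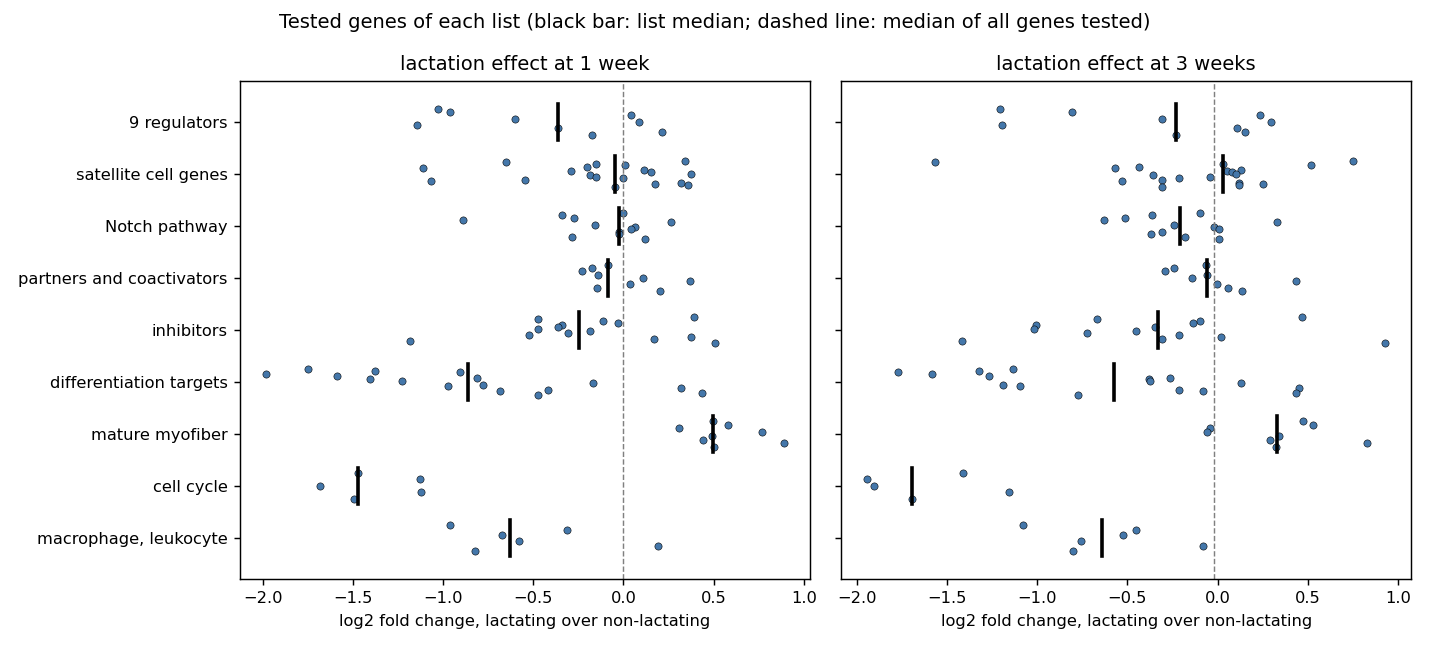
Log2 fold change, lactating over non-lactating (x axis), of each tested gene (points) of the 9 regulators and of the lists at 1 week (left) and 3 weeks (right), with a black bar at each list's median and a dashed line at the median of all genes tested. The 9 regulators had medians of -0.36 and -0.23, and the differentiation genes of -0.86 and -0.58.

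Levels of marker genes of other cells and states are given beside those of the regulators. Of 5 cell cycle genes, all 5 had lower values in lactating rats at both times, with medians of -1.47 and -1.70, and their summed level was 17.9 to 33.6 in non-lactating and 5.71 to 12.3 in lactating pools at 1 week and 3.47 to 16.1 and 2.42 to 3.55 normalized CPM at 3 weeks. Of 6 macrophage and leukocyte genes, 5 were lower at 1 week and 6 at 3 weeks, with medians of -0.63 and -0.64, and summed levels of 197 to 226, 143 to 194, 141 to 301 and 131 to 165 in the same order. Among them, Cd68 was called lower at 3 weeks (log2 fold change -1.08, adjusted p = 0.015, edgeR). The highest sums in 3wk SBI, 16.1 for cell cycle and 301 for macrophage and leukocyte genes, were those of replicate 3. Replicates 1 and 2 were at 4.51 and 3.47 for cell cycle genes and at 153 and 141 for macrophage and leukocyte genes. For both lists the summed levels thus overlapped between lactating and non-lactating pools at 3 weeks. Of 8 mature fiber genes, 8 had higher values at 1 week (median 0.50) and 6 at 3 weeks (median 0.33), and their summed level was 76518 to 123717, 122652 to 146559, 118956 to 163318 and 173631 to 202598 normalized CPM. The 4 fibroblast genes had lower values at both times. Their summed levels overlapped between lactating and non-lactating pools at 1 week (1318 to 2533 and 2389 to 3554) and not at 3 weeks (802 to 1217 and 1261 to 2609). At 1 week only lactating replicate 3 (2533) reached the non-lactating range. At 3 weeks the nearest pools (1217 and 1261) almost met, and non-lactating replicates 1, 2 and 3 were at 1261, 1290 and 2609. The medians of 5 endothelial genes were -0.061 and 0.0015. Among 4 mammary genes, the summed level was 0 in every 1wk SBI library and at most 30.9 normalized CPM in 3wk SBI + Lac. Among 4 erythroid genes it was 242 to 414 in 1wk SBI and 556 to 780 in 1wk SBI + Lac, without overlap, and 97.3 to 183 and 132 to 242 at 3 weeks. The part of these shifts in the levels of Pax7, Myf5 and Megf10 was not tested.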

How the data were processed

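RNA of 12 pools of pubocaudalis muscle was sequenced from stranded libraries, and the authors deposited one table of gene counts, not normalized. The authors' values for 1 week are whole counts, while those for 3 weeks, as deposited, have decimals and were treated as estimated counts and rounded, although the design assumed whole counts throughout. Salmon is named in the submitters' processing notes, and its version, like the genome build and annotation, is not given in the sources used here. In 30 genes, 27 of them without a symbol, the 1-week counts were 0 and the 3-week counts at least 100, and 0 genes showed the opposite.

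Tests used edgeR 4.0.16 under R 4.3.3 (TMM, filterByExpr, robust quasi-likelihood fit over all 12 libraries and 4 groups, Benjamini-Hochberg adjustment over 14599 genes), and a gene was called at an adjusted p under 0.05 with a log2 fold change beyond 1 in size (the study used the same values). Contrasts were lactating over non-lactating at each time, their difference, and 3 weeks over 1 week in each group, with the average of the lactation effects added after the data were seen. Intervals and standard errors come from the fit. The 9 genes and the lists were chosen with earlier results of these data known, and counts over them are descriptions. All 9 are named in every contrast. Of each list of genes that act around them, the 3 genes with the smallest unadjusted p at 1 or 3 weeks and every called gene are named. The promoters of Pax7, Myf5 and Myf6 and the DESeq2 counts of the lists were added later. The likeness measure used a prior count of 2 and genes of at least 1 normalized CPM on average.

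Depth was 10082734 to 75634391 counts per library, so 1 count of a low gene weighs more in the shallow ones. Intervals from counts cover counting error only. The p-values measure the spread between pools of 2 rats. The labels do not say whether pools with the same number share a batch. No 2 libraries of a group agreed within sampling noise. The fit was run on simulated counts with known changes, put in a single group and only in genes above a minimum level. Calls there used the adjusted p alone, so the rule with both cutoffs and genes of the lowest levels were not tested. Alternatives were RLE and upper-quartile scaling, DESeq2 1.42.0 on all or only the compared libraries, edgeR on only the compared libraries, fits without the low-count filter or with genes of at least 10 counts everywhere, a replicate block, unrounded 3-week values, library sizes without erythroid, mammary and mitochondrially encoded genes, libraries thinned to equal depth, the adjusted p alone, and each library left out. Serum, hormone and tissue staining measurements were not analysed here.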

Additional observations from a re-analysis of the deposited data

How the results depend on the processing

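All the alternatives listed under the processing were run for the 9 genes. At 1 week 0 genes were called in the main fit. In edgeR, 1 was called at equal depth and 1 with only the compared libraries, beside 0.365% and 0.769% of all genes. DESeq2 on all or only the compared libraries called 2, beside 1.31% and 2.23%. With one library left out, 0 to 2 were called, beside 0.0133% to 1.59% of all genes. In the main fit at 1 week, 5 genes had an unadjusted p under 0.05, and 4 to 5 with a library left out. At 3 weeks 1 gene was called in the main fit. Without the low-count filter and at equal depth 2 were called, beside 0.498% and 0.551% of all genes. DESeq2 on all or only the compared libraries also called 2, beside 1.76% and 1.37%. A replicate block and only the compared libraries in edgeR gave 0, beside 0.438% and 0.547%. With one library left out, 0 to 1 were called, beside 0.146% to 1.05% of all genes. The count at an unadjusted p under 0.05, which was 3, became 5 with only the compared libraries in DESeq2 or edgeR and ran from 2 to 5 with a library left out. Over time without lactation, 2 genes passed the adjusted p alone, beside 5.05% of all genes, and 0 to 1 were called with a library left out. These were Myog without 1wk SBI replicate 3 (beside 2.68% of all genes) and Myf5 without 3wk SBI replicate 3 (beside 3.75%). For the averaged effect, 2 genes were called, beside 2.28% of all genes. When at least 10 counts were asked of every library, where Pax7 was not tested, 1 was called, beside 0.868%. By the adjusted p alone 4 passed, beside 15.3%, and with a library left out 1 to 2 were called, beside 0.921% to 2.79%.

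Pools with the same replicate number did not deviate together (correlations over all genes from -0.233 to 0.200), so the replicate block is given only here. It took Megf10 at 3 weeks to an adjusted p of 0.0952 (log2 fold change -1.16, edgeR), which left 0 genes called there, and changed no other call of the 9 genes. The adjusted p of the averaged effect of Myog became 0.054 with the block, and the averaged calls of Myh3 (0.0501), Myl4 (0.0824) and Cdkn1c (log2 fold change -0.99) were lost. Averaged calls were also lost without the low-count filter for Mymk (0.0684), Myh3 (0.0848) and Myl4 (0.0691), and at equal depth for Mdfi (0.111), Mymk (0.0542), Myh3 (0.0622) and Myl4 (0.0672, adjusted p, edgeR). With the block, 0 genes had an unadjusted p under 0.05 for the change of the lactation effect.

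Directions turned for the following effects, none of which was called. At equal depth, Cdh15 at 3 weeks was -0.022. Des over time without lactation was 0.000979 with RLE, 0.000639 with DESeq2 on all libraries and 0.000421 on only the compared ones. With one library left out, both signs were taken by the lactation effects of Myod1 (-0.074 to 0.20) and Myf6 (-0.056 to 0.24) at 1 week and of Cdh15 at 3 weeks (-0.016 to 0.26), by the changes of the lactation effect of Pax7 (-0.41 to 0.043), Myf5 (-0.11 to 0.60), Megf10 (-0.31 to 0.29), Des (-0.20 to 0.051) and Mef2c (-0.21 to 0.076), by the time effects without lactation of Pax7 (-0.36 to 0.023), Cdh15 (-0.28 to 0.019), Des (-0.11 to 0.14) and Mef2c (-0.21 to 0.076), and by Des over time with lactation (-0.13 to 0.028). The low counts of Pax7, Myf5 and Megf10 in the shallow 3-week libraries limit the precision of their effects there, and each group had 3 pools.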
